A study of Mus musculus with 6 samples.

Results

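The 4 adult hemoglobin genes of the table, Hbb-b1, LOC100503605, Hba-a1 and Hba-a2, and Alas2, the erythroid enzyme of heme synthesis, were followed through RNA bound to phosphorylated ribosomal protein S6 and through total RNA of the same warm challenges. They are 5 of 13724 gene entries, and were picked by symbol because the hemoglobin genes were among the largest differences between the 2 fractions in these same libraries. Their difference between fractions is therefore given as a description, without a p-value. The libraries were 3 immunoprecipitates (IP, called Immunoppt in the labels) and 3 inputs, 1 of each from warm challenges 1, 2 and 3. All mice were wild type C57Bl6/J, and all had been warmed, inputs included, so no library comes from another temperature. The IP was made with an antibody against S6 phosphorylated at sites 244 and 247, a mark that active neurons gain. The labels call the tissue preoptic neurons, while their protocol describes anterior hypothalamus cut from 0.5 mm brain sections, which holds all cells of that tissue, its vessels and any blood left in them. Number, sex and age of the animals, and the temperature and length of the challenge, are not stated in the labels, so the spread between libraries may be partly technical.

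Hemoglobin is a tetramer of paired alpha and beta chains that carries oxygen in red cells, each chain holding 1 heme. Alpha chains come from the near-identical neighbours Hba-a1 and Hba-a2. Adult beta chains come from a separate cluster, listed here under the symbols Hbb-b1 and LOC100503605. Whether both symbols stand for separate genes in this strain was not checked. RefSeq lists the gene ID of LOC100503605 as Hbb-bs, the beta-s chain. Alas2 makes 5-aminolevulinate, the first and limiting product of heme synthesis in red cell precursors, while Alas1 does so in other cells. Hemoglobin messengers stay in young red cells after the nucleus is lost, and have also been described at low levels in neurons and glia. These genes are classically driven by GATA1, which binds GATA motifs, and KLF1, which binds CACCC motifs.

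The stretches of 250 bases before the gene start are shown because the hemoglobin genes moved together, with Alas2 beside them as another gene of the same factors. They are RefSeq sequences of build GRCm38.p6, not of mm9, the build in the submitters' processing notes. RefSeq windows were at hand for 4 of the 5 genes, and Hbb-b1 is named only. Capitals mark GATAA (the motif of GATA factors), CACCC (the motif of KLF1), CCAAT (the CCAAT box) and TATAA (the TATA box) on either strand. Each sequence is written 5′ to 3′ along the gene.
Hba-a1, chr11:32283422-32283671, plus strand: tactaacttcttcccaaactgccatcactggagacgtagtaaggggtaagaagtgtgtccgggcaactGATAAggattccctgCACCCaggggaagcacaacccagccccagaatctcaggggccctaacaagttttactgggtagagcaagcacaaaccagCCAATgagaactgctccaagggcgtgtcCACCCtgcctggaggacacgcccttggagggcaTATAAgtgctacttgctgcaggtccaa
LOC100503605 (Hbb-bs), chr7:103827929-103828178, minus strand: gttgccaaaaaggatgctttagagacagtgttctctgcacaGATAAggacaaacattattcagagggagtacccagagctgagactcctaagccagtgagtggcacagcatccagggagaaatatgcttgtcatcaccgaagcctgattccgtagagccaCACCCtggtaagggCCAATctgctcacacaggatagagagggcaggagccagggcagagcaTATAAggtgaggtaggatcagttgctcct
Alas2, chrX:150547167-150547416, plus strand: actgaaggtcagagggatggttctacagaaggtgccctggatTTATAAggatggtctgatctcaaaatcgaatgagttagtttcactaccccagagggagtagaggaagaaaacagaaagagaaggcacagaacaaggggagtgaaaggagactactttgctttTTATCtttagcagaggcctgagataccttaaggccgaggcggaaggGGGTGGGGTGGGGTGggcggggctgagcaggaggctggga
The Hba-a2 window was the same as that of Hba-a1 over a run of 247 bases, with an offset of 3. GATAA and CACCC each occurred in 4 of 4 windows, against 22.6% and 52.0% of all 32851 RefSeq windows of that length. CCAAT occurred in 3 of 4 windows, Alas2 being the one without it, against 33.8% of all windows. TATAA occurred in 4 of 4, against 22.8%, and lay 27, 30 and 29 bases before the start of Hba-a1, Hba-a2 and Hbb-bs. The TATAA of Alas2 lay 207 bases before its start, where the letters match on both strands and overlap. A match is a run of letters and not a bound site.

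The depth of the libraries in reads is unknown, since the table holds RPKM, reads scaled to gene length and to library size. Summed RPKM lay between 374708 and 496125 in IP and between 384389 and 476059 in input. IP 1 stood somewhat apart, with Spearman correlations across genes of 0.927 with IP 2 and 0.915 with IP 3, against 0.955 between IP 2 and IP 3 and 0.952 to 0.980 among inputs. Neuronal genes were abundant in every library (Snap25, a synaptic protein, 2063 to 5392 RPKM in IP and 2790 to 4144 RPKM in input), and Zic1 (71.3 to 109 and 51.1 to 52.6 RPKM) and Six3 (32.7 to 61.2 and 26.4 to 31.0 RPKM), transcription factors of the anterior hypothalamus and preoptic area, were present. The 11 preoptic and hypothalamic markers with a row summed to 265, 281 and 209 RPKM in IP 1, 2 and 3. In inputs 1, 2 and 3 they summed to 334, 230 and 115 RPKM. Among inputs, the peptide genes Oxt (120, 78.0 and 5.71 RPKM) and Gal (86.8, 40.3 and 10.8 RPKM) were lowest in input 3. Zic1 and Six3 were near level among inputs. What this difference contributed to the hemoglobin values was not tested. Oligodendrocyte genes were present too, with a summed level of 373 to 554 RPKM in IP and 1105 to 1219 RPKM in input.

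Beta chain messengers were many times higher in IP than in input in every warm challenge. Hbb-b1 was the hemoglobin entry with the highest levels here. It had 115, 330 and 137 RPKM in IP 1, 2 and 3, against 26.7, 26.0 and 7.05 RPKM in inputs 1, 2 and 3. The groups did not overlap, IP 2 was the highest library and input 3 the lowest. The means were 194 ± 119 RPKM in IP and 19.9 ± 11.2 RPKM in input (SD, n = 3 each), and the log2 fold was 3.26 (SE 0.53) on the log2(RPKM + 1) scale, which understates changes of low genes. By level Hbb-b1 ranked 263 of all 13724 entries in IP 2 and 7613 in input 3. LOC100503605 had 38.5, 102 and 32.1 RPKM in IP 1, 2 and 3, against 10.7, 9.91 and 1.15 RPKM in inputs 1, 2 and 3. Again the groups did not overlap, with input 3 far below the other inputs, and the highest input was 9.36 times the lowest. Its means were 57.5 ± 38.6 RPKM in IP and 7.26 ± 5.31 RPKM in input (SD, n = 3 each), and the log2 fold was 2.98 (SE 0.65).

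Alpha chain messengers behaved alike at lower levels. Hba-a1 had 54.3, 145 and 57.7 RPKM in IP 1, 2 and 3, against 14.95, 13.7 and 3.85 RPKM in inputs 1, 2 and 3. Its means were 85.6 ± 51.3 RPKM in IP and 10.8 ± 6.07 RPKM in input (SD, n = 3 each), and the log2 fold was 2.90 (SE 0.50). Hba-a2 had 31.3, 89.8 and 33.2 RPKM in IP 1, 2 and 3, against 8.12, 5.93 and 2.85 RPKM in inputs 1, 2 and 3. For both genes IP 2 stood above the other IP libraries, IP 1 and IP 3 were close, and input 3 was lowest. Hba-a2 averaged 51.4 ± 33.2 RPKM in IP and 5.63 ± 2.65 RPKM in input (SD, n = 3 each), and the log2 fold was 2.90 (SE 0.44). The lowest IP value was 2.99 times the highest input value for LOC100503605, 3.63 times for Hba-a1, 3.85 times for Hba-a2 and 4.30 times for Hbb-b1. A complete separation with IP above input held for the 4 hemoglobin genes and not for Alas2, and for 6.85% of the 12328 genes tested, a share from which nothing is read since this contrast chose the members.

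Alas2 was a low transcript whose groups overlapped. It had 1.36, 1.83 and 0.410 RPKM in IP 1, 2 and 3, against 0.508, 0.488 and 0.385 RPKM in inputs 1, 2 and 3. IP 1 and IP 2 lay above all inputs, whereas IP 3 lay below inputs 1 and 2. The means were 1.20 ± 0.725 RPKM in IP and 0.460 ± 0.0660 RPKM in input (SD, n = 3 each), and the log2 fold was 0.53 (SE 0.25). The fold of so low a gene depends on the pseudocount, and was 1.02 with a pseudocount of 0.1 and 0.18 with one of 5. Alas2 reached 1 RPKM in 2 libraries and so missed the filter of 1 RPKM in at least 3 of 6 libraries that the 4 hemoglobin genes passed.

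**Figure D1:**
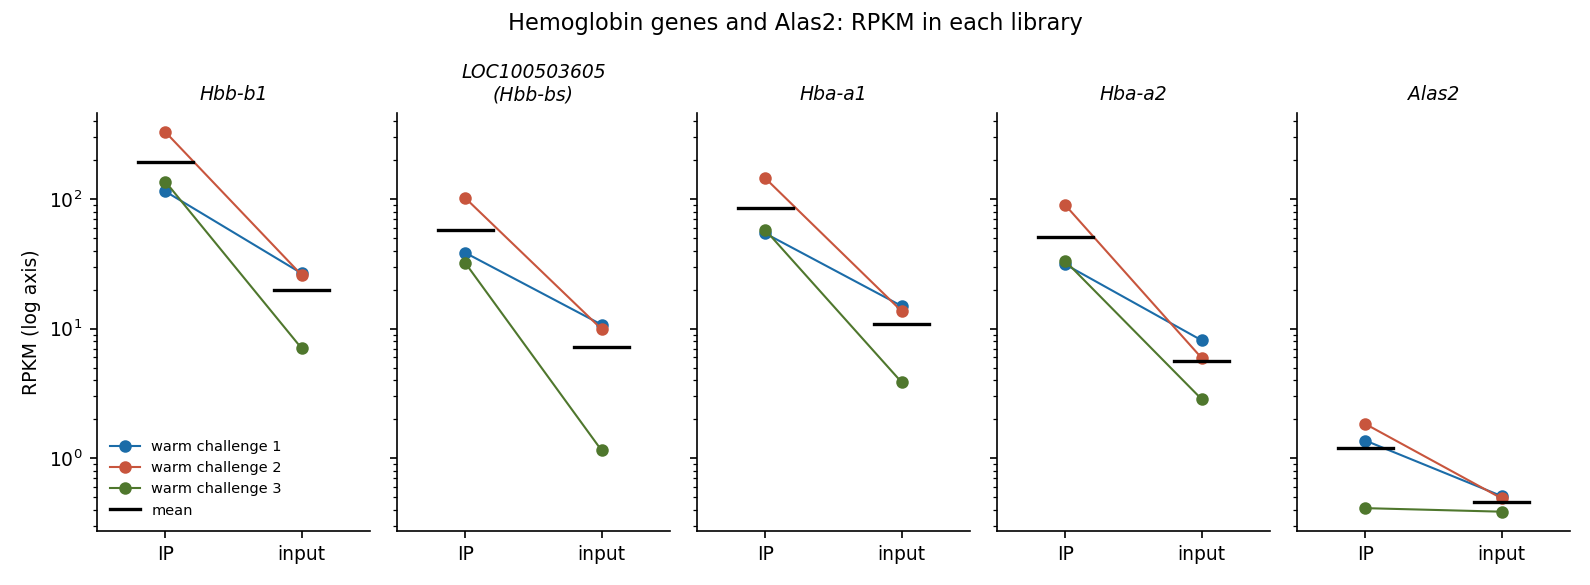
RPKM on a log axis for each hemoglobin gene and Alas2, with 1 point per library, lines joining the IP and the input of the same warm challenge, and black bars at the mean of 3 libraries. IP lies above input for every hemoglobin gene, while Alas2 of warm challenge 3 is 0.410 RPKM in IP and 0.385 RPKM in input.

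The size of the difference varied between warm challenges. Summed over the 4 hemoglobin genes, the level was 239 RPKM in IP 1 against 60.5 RPKM in input 1, a ratio of 3.95. In warm challenge 2 it was 667 RPKM in IP against 55.5 RPKM in input, a ratio of 12.03. In warm challenge 3 it was 260 RPKM in IP against 14.9 RPKM in input, a ratio of 17.4. The higher ratio of challenge 2 went with the highest IP level, and that of challenge 3 with the lowest input level. The sum averaged 388 ± 241 RPKM in IP and 43.6 ± 25.0 RPKM in input (SD, n = 3 each). It made up 0.0593% to 0.134% of the summed RPKM of an IP library and 0.00388% to 0.0127% of that of an input. Each warm challenge gave 1 library per fraction, so a difference between challenges has no replicate.

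Within a warm challenge the hemoglobin genes stood near the top of all 12328 genes tested. Hbb-b1 had a log2 fold of 2.06 in challenge 1 (rank 42 from the highest), 3.62 in challenge 2 (rank 3) and 4.10 in challenge 3 (rank 2). LOC100503605 had 1.75 (rank 71), 3.24 (rank 6) and 3.95 (rank 3) in challenges 1, 2 and 3. Hba-a1 had 1.79 (rank 63), 3.32 (rank 5) and 3.60 (rank 6), and Hba-a2 1.82 (rank 58), 3.71 (rank 2) and 3.15 (rank 9). Challenge 1 thus had the lowest fold for all 4 genes. Challenge 3 had the highest for Hbb-b1, LOC100503605 and Hba-a1, and challenge 2 for Hba-a2. Alas2 followed another order, with 0.65 in challenge 1, 0.93 in challenge 2 and 0.03 in challenge 3. These Alas2 folds lay above those of 92.24%, 96.45% and 61.89% of the genes tested in challenges 1, 2 and 3. The median log2 fold of all genes tested was -0.22, -0.17 and -0.17 in challenges 1, 2 and 3.

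**Figure D2:**
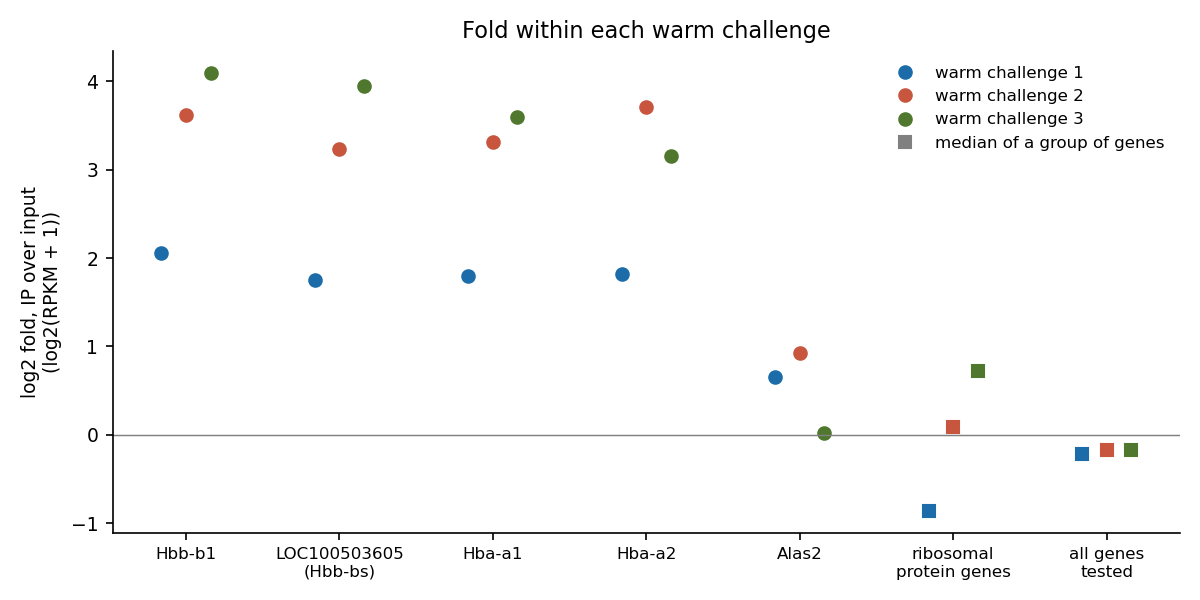
Log2 fold of IP over input on the log2(RPKM + 1) scale within each warm challenge, with circles for single genes and squares for the median of 74 cytosolic ribosomal protein genes and of all 12328 genes tested. The 4 hemoglobin genes lie between 1.75 and 4.10, Alas2 between 0.03 and 0.93, and the ribosomal protein median between -0.86 and 0.72.

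Another group of abundant messengers differed between the same libraries. The median level of 74 cytosolic ribosomal protein genes, a list chosen after their values were seen, was 302, 573 and 381 RPKM in IP 1, 2 and 3, against 561, 560 and 210 RPKM in inputs 1, 2 and 3. As for the hemoglobin genes, IP 2 was the highest IP library and input 3 the lowest input. Their median log2 fold was -0.86 in challenge 1, 0.09 in challenge 2 and 0.72 in challenge 3. The log2 folds of the 4 hemoglobin genes were 1.75 to 2.06 in challenge 1, 3.24 to 3.71 in challenge 2 and 3.15 to 4.10 in challenge 3. What these library differences contributed to the hemoglobin values was not tested.

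The proportions of the chains were closer between libraries than their levels. The beta sum (Hbb-b1 and LOC100503605) over the alpha sum (Hba-a1 and Hba-a2) was 1.79, 1.84 and 1.86 in IP 1, 2 and 3, against 1.62, 1.83 and 1.22 in inputs 1, 2 and 3. The IP libraries lay within a narrow range (1.83 ± 0.0342, SD, n = 3), and the inputs spread more (1.56 ± 0.310, SD, n = 3), input 3 being the lowest. Hbb-b1 over Hba-a1 was 2.11, 2.28 and 2.37 in IP 1, 2 and 3, against 1.79, 1.90 and 1.83 in inputs 1, 2 and 3. This ratio did not overlap between the fractions, at 2.25 ± 0.129 in IP and 1.84 ± 0.0572 in input (SD, n = 3 each). It uses the values that chose the genes and was not tested. Hba-a1 over Hba-a2 was 1.70 ± 0.0713 in IP and 1.83 ± 0.476 in input (SD, n = 3 each), with overlap. Hbb-b1 over LOC100503605 was 2.98, 3.24 and 4.26 in IP 1, 2 and 3, against 2.49, 2.62 and 6.15 in inputs 1, 2 and 3, with the highest value of each fraction in challenge 3. Reads shared by near-identical copies could have been divided in several ways by the authors' counting, of which no source used here speaks, so ratios and levels within the alpha pair and within the beta pair are uncertain.

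**Figure D3:**
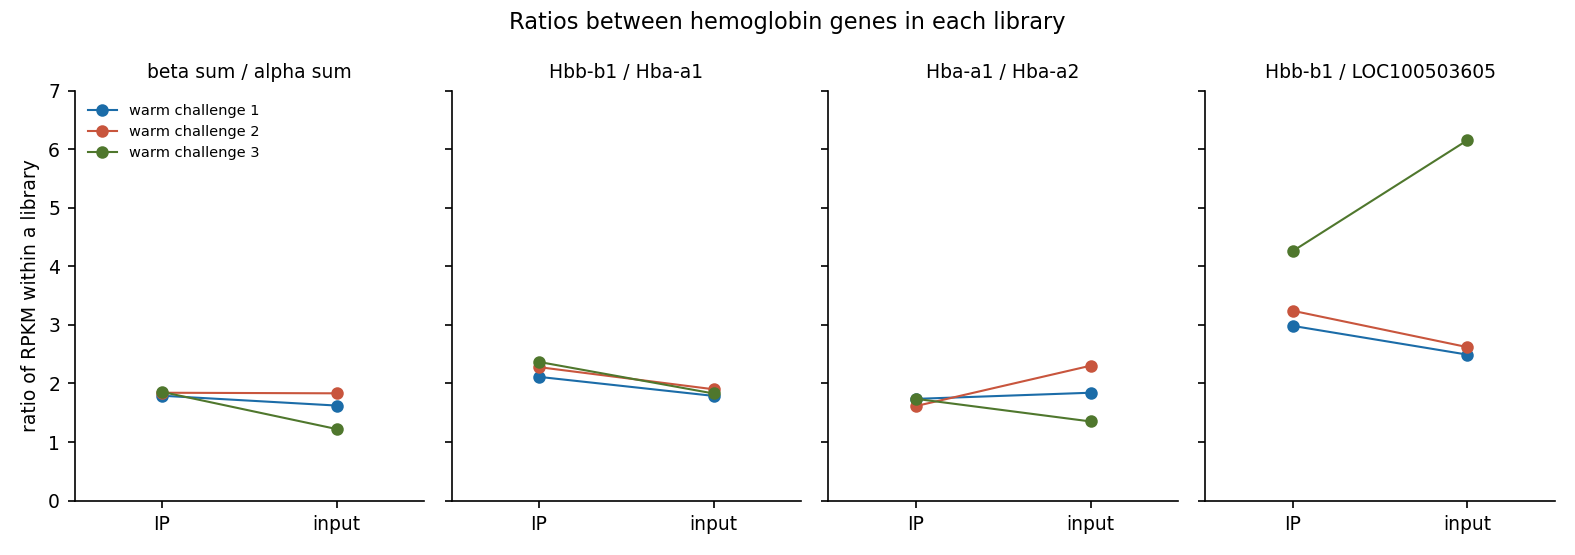
Ratios of RPKM within each library on a linear axis from 0, with 1 point per library and lines joining the IP and the input of a warm challenge. Beta over alpha lies at 1.79 to 1.86 in the 3 IP libraries and at 1.22 to 1.83 in the 3 inputs, and Hbb-b1 over LOC100503605 reaches 6.15 in input 3.

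Centred on its own mean, each hemoglobin gene followed nearly the same profile over the 6 libraries. The root-mean-square difference between 2 such profiles on the log2(RPKM + 1) scale ran from 0.19 (Hbb-b1 and Hba-a1) to 0.47 (LOC100503605 and Hba-a2). Between Alas2 and a hemoglobin gene it was 1.28 to 1.52. From the mean profile of the 4 hemoglobin genes, these genes lay 0.06 to 0.25 away and Alas2 1.39. The median gene tested lay 1.78 away. Of the 12328 genes tested, 593 lay nearer to that mean profile than Alas2, the 4 hemoglobin genes among them. The 4 genes make up that mean, which shortens their own distances, and the pseudocount of 1 flattens the profile of a gene as low as Alas2. The profile was 1.01, 2.46 and 1.05 in IP 1, 2 and 3, against -0.85, -1.02 and -2.65 in inputs 1, 2 and 3. Near-identical copies that share reads are not independent of each other in this measure.

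The 6 other genes nearest to that profile were Rrad, Nnmt, Crem, Fam159a, Crh and Jun, at 0.61 to 0.76. Rrad, a GTPase that curbs calcium channel currents, had 102, 90.3 and 31.7 RPKM in IP 1, 2 and 3, against 9.60, 6.72 and 3.04 RPKM in inputs 1, 2 and 3. It shared the low input 3 but not the peak in IP 2. Nnmt, nicotinamide N-methyltransferase, had 3.95, 12.1 and 3.00 RPKM in IP 1, 2 and 3, against 1.32, 1.25 and 0.171 RPKM in inputs 1, 2 and 3. Like the hemoglobin genes it was highest in IP 2 and lowest in input 3. Crem is a cAMP-responsive transcription regulator, Jun an AP-1 subunit and Crh corticotropin-releasing hormone. Jun peaked in IP 2 (58.3 RPKM), Crh in IP 1 (55.8 RPKM), while Crem was level between IP 1 and IP 2 (60.4 and 60.9 RPKM). The groups did not overlap for any of these 6 genes, which the choice by profile favours.

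None of the other red cell genes tested was called higher in IP over the 6 libraries. IP and input were compared with limma on log2(RPKM + 1), with Benjamini-Hochberg adjustment over all 12328 genes, of which 0.892% were higher and 3.29% lower at an adjusted p under 0.05. Of 43 further red cell gene symbols in a list, older and newer names included, 19 had a row and 16 were tested. By limma 0 of these were higher and 1 lower, while 1 was higher and 5 lower at an unadjusted p under 0.05. Their median log2 fold was -0.31, beside -0.18 for all genes tested. Their summed level was 457 to 611 RPKM in IP and 500 to 648 RPKM in input. Bnip3l, a receptor for the clearance of mitochondria in maturing red cells that other cells use too, fell to 32.8 ± 5.69 RPKM in IP, against 66.3 ± 10.99 RPKM in input (SD, n = 3 each), and the log2 fold was -0.997 (SE 0.23, limma adjusted p = 0.0482). Its call held in 1 of 6 omissions of a single library, that of IP 1, with adjusted p from 0.0370 to 0.170, and ended after median scaling (0.101). Other red cell markers of this list, among them Slc4a1, Klf1, Gata1 and Ahsp, had no row, which is not read as absence.

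Red cell membrane genes with a row gave values in several directions. Rhag, an ammonia channel of the Rh complex, had 0.757, 0.804 and 0.560 RPKM in IP 1, 2 and 3, against 1.58, 1.41 and 2.17 RPKM in inputs 1, 2 and 3. All IP values lay below all input values, the reverse of the hemoglobin genes, but the fold did not pass (log2 fold -0.66, limma adjusted p = 0.0997). Epb4.2, protein 4.2 of the red cell skeleton, had 0.558, 0.369 and 0.297 RPKM in IP 1, 2 and 3, against 1.15, 0.811 and 1.37 RPKM in inputs 1, 2 and 3, too low for the filter, and again without overlap. Ank1, an ankyrin of the red cell membrane that neurons also use, had 11.4, 10.1 and 13.4 RPKM in IP 1, 2 and 3, against 5.90, 6.51 and 9.30 RPKM in inputs 1, 2 and 3 (log2 fold 0.63, limma adjusted p = 0.143). IP was above input for this gene in all 3 challenges. Complete separation with IP below input was met by 23.5% of all genes tested, against 6.85% for the opposite direction.

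Genes of the heme pathway other than Alas2 held no call. Of 26 symbols listed, older and newer names included, 20 were tested. By limma 0 were higher and 0 lower, with 0 higher and 2 lower at an unadjusted p under 0.05. Their median log2 fold was -0.09. Alas1, the enzyme of heme synthesis outside red cells, had 15.8, 14.8 and 14.3 RPKM in IP 1, 2 and 3, against 9.32, 12.1 and 11.01 RPKM in inputs 1, 2 and 3 (log2 fold 0.44, limma adjusted p = 0.221). It was many times more abundant than Alas2 in both fractions. Fech, which inserts iron in the last step, averaged 11.6 ± 3.31 RPKM in IP and 19.5 ± 1.64 RPKM in input (SD, n = 3 each; log2 fold -0.72, limma adjusted p = 0.110). Hebp1, a heme-binding protein, averaged 5.20 ± 1.56 RPKM in IP and 11.8 ± 4.83 RPKM in input (SD, n = 3 each; log2 fold -0.99, limma adjusted p = 0.117).

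Among 10 iron handling genes tested, 0 were higher and 1 lower by limma (unadjusted, 0 and 3). Trf, transferrin, the iron carrier that oligodendrocytes make in brain, fell to 9.60 ± 8.14 RPKM in IP, against 49.1 ± 7.01 RPKM in input (SD, n = 3 each; log2 fold -2.50, SE 0.44, limma adjusted p = 0.0264). Its call held in 1 of 6 single omissions, that of IP 1 (adjusted p 0.00147 to 0.117). Oligodendrocyte markers moved the same way, with 8 of 10 lower and 0 higher (median log2 fold -1.94), and their part in the value of Trf was not tested. Fth1, ferritin heavy chain, averaged 793 ± 89.3 RPKM in IP and 2153 ± 502 RPKM in input (SD, n = 3 each; log2 fold -1.42, limma adjusted p = 0.0723). Of 14 other globin symbols listed, 2 had a row, both globins of nerve and other cells rather than of red cells. The symbols listed also held Hbb-bs, the RefSeq name of LOC100503605. Cytoglobin (Cygb) averaged 37.7 ± 7.73 RPKM in IP and 56.3 ± 5.68 RPKM in input (SD, n = 3 each; log2 fold -0.58, limma adjusted p = 0.162). Neuroglobin (Ngb) averaged 26.9 ± 14.3 RPKM in IP and 40.2 ± 17.9 RPKM in input (SD, n = 3 each; log2 fold -0.62, limma adjusted p = 0.480). By limma 0 of the 2 were higher or lower, and 1 was lower at an unadjusted p under 0.05.

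Markers of vessels and of other blood cells were low and none was called higher in IP over the 6 libraries. Of 28 endothelial markers 8 had a row, with a summed level of 18.6 to 22.9 RPKM in IP and 24.3 to 36.0 RPKM in input. Of the 6 tested, 0 were higher or lower by limma (unadjusted, 0 and 1), with a median log2 fold of -0.41. Ctla2a had a log2 fold of -0.80 (limma adjusted p = 0.114) and Ramp2, a receptor partner in endothelium, -0.74 (0.217). White cell and platelet markers (5 of 28 with a row) summed to 5.71 to 9.56 RPKM in IP and 11.7 to 12.7 RPKM in input, with 0 of 4 tested higher or lower (unadjusted, 0 and 1). The T cell genes Cd3d and Cd8a had log2 folds of -0.66 and -0.53 (limma adjusted p = 0.137 and 0.241). Of 5 mural cell and fibroblast markers tested, 0 were higher and 1 lower (unadjusted, 0 and 3). That gene was Rgs5, a regulator of G-protein signalling in pericytes, at 1.03 ± 0.381 RPKM in IP and 4.08 ± 1.02 RPKM in input (SD, n = 3 each; log2 fold -1.32, limma adjusted p = 0.0305). Its call held in 2 of 6 single omissions, those of IP 1 and IP 3 (adjusted p 0.0250 to 0.132). Microglial markers (11 of 16 with a row) summed to 14.0 to 16.9 RPKM in IP and 17.9 to 34.1 RPKM in input, with 0 of 5 tested higher or lower (unadjusted, 0 and 1). IP and input share their warm challenge, so these folds do not measure the number of cells in the tissue. For all these markers, as for the hemoglobin genes, bulk libraries do not show which cells held a messenger.

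In the direction of the hemoglobin genes moved the activity-regulated genes, of which 14 of 17 were higher and 0 lower by limma, with a median log2 fold of 2.07 and a range of 1.16 to 4.08. Earlier results on these libraries were known when that list was written, so its count is no independent evidence. Fosb, an AP-1 subunit induced by firing, had a log2 fold of 4.08 (SE 0.24, limma adjusted p = 0.000308). The 2.90 to 3.26 of the hemoglobin genes thus lay inside the range of this list. The spread over libraries varied within the list. Fosb had 89.1, 63.2 and 73.1 RPKM in IP 1, 2 and 3, against 4.78, 2.81 and 3.04 RPKM in inputs 1, 2 and 3, with neither a peak in IP 2 nor a trough in input 3. Rrad and Crem, of the same list and among the nearest profiles above, were lowest in input 3 (3.04 and 7.32 RPKM). Among inputs, Arc and Egr1 were instead highest in input 3 (5.56 and 53.2 RPKM).

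**Figure D4:**
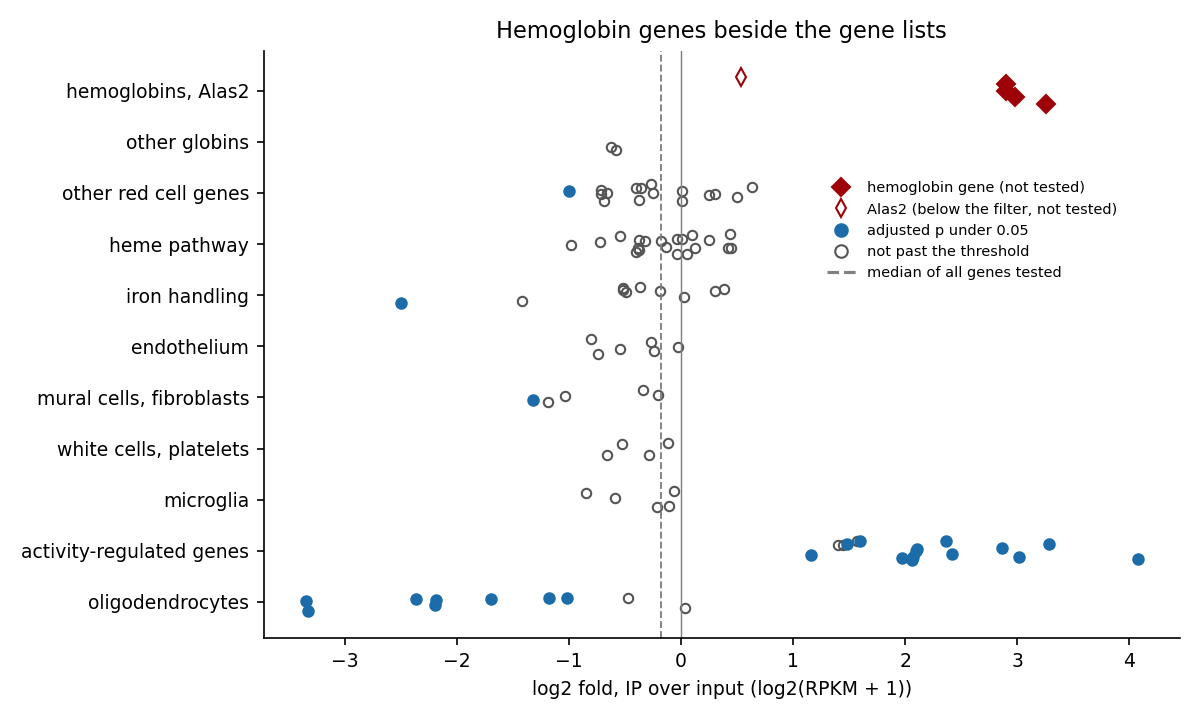
Log2 fold of IP over input on the log2(RPKM + 1) scale, with 1 symbol per gene, diamonds for the hemoglobin genes and Alas2, filled circles for listed genes past an adjusted p of 0.05 (limma, n = 3 per group) and open circles for the others. The 4 hemoglobin genes lie at 2.90 to 3.26, while the other red cell genes span -0.997 to 0.63 and the heme pathway genes -0.99 to 0.45.

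Since every IP value of the hemoglobin genes lay above every input value, omissions could not reverse the direction of their folds. These folds ran from 2.18 to 3.86 over the omission of each library or challenge and all other settings tried. Without IP 1 they were 3.55 for Hbb-b1, 3.17 for LOC100503605, 3.15 for Hba-a1 and 3.16 for Hba-a2. Without input 3 they were 2.67, 2.18, 2.35 and 2.55 in the same order of genes.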

How the data were processed

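Per the file headers, the deposited table holds linear RPKM per gene, with 1 column for each of 3 IP and 3 input libraries. Per the submitters' processing notes, reads were placed on mm9, while aligner, counting tool and annotation are not stated in the labels. The smallest value was 0.101 RPKM, so a gene at 0.1 RPKM or less anywhere has no row, and a marker without a row is not read as absent.

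The members, gene lists and rules were chosen with earlier results of these data known. Members were matched by symbol, and LOC100503605 by gene ID to RefSeq (GRCm38.p6). The scale was log2(RPKM + 1), over the 12328 genes that reached 1 RPKM in at least 3 of 6 libraries. limma 3.58.1 in R 4.3.3 (mean-variance trend, two-sided, no block, Benjamini-Hochberg, threshold 0.05) was fitted over all of them and tested on simulated data. Alas2 came from a fit without the filter. Tables and plots used Python 3.11.15, numpy 2.4.6, pandas 2.3.3 and matplotlib 3.10.9.

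From those of 14 lists that bear on the members, the text names up to 2 called genes by size of fold (the 2 lowest p where none was called), and the 6 genes nearest in profile. Other genes named are further values, chosen after they were seen. Same-numbered IP and input libraries stem from the same warm challenge by their labels. They were taken as paired for the folds within a challenge, but not in the limma fit reported. Their deviations from the group means had correlations across genes of 0.06, 0.61 and 0.27 for challenges 1, 2 and 3. Alternatives were other pseudocounts, filters and scalings, no trend, the pairing as a block, and omission of each library or challenge.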

Additional observations from a re-analysis of the deposited data

How the results depend on the processing

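No hemoglobin gene moved by more than the SD of its 3 challenge folds (0.97 to 1.12 log2) under any of the 17 alternatives. That yardstick is wide, and part of the outcome was fixed in advance. Omission of 1 challenge cannot move a mean of 3 folds that far. Other filters and no trend left these folds the same by construction. The ranges were 2.67 to 3.86 for Hbb-b1, 2.18 to 3.59 for LOC100503605, 2.35 to 3.46 for Hba-a1 and 2.29 to 3.43 for Hba-a2 (log2). The fold of Alas2 was 0.32 to 0.83 over omissions, 1.02 with a pseudocount of 0.1 and 0.18 with one of 5. With the warm challenge as a replicate block the member folds were the same by construction, and 656 genes were called (164 higher, 492 lower) against 516 without it. The block added 1 astrocyte gene and 1 preoptic gene, both lower, and 1 activity-regulated gene. Median scaling, which moved the median fold of all genes from -0.18 to -0.02, gave 249 calls (121 higher, 128 lower) and quantile normalization 253 (129 higher, 124 lower). Without single libraries or challenges the count ran from 1 (without challenge 2) to 1699 (without IP 1).

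Among the lists, the 1 lower red cell gene and the 1 lower choroid or ependymal gene (Ccdc153) were 0 with a pseudocount of 0.1, no filter, median scaling, quantile normalization or no trend, and the second also with a filter of 5 RPKM. The 1 lower mural gene (Rgs5) became 0 with that filter, under which neither Rgs5 nor Ccdc153 was tested, or with quantile normalization, and iron handling genes 2 with quantile normalization or no trend. Over omissions the calls ran from 0 to 1 for red cell, choroid, endothelial and general neuronal genes, 0 to 2 for iron, mural, astrocyte and preoptic genes, 0 to 8 for oligodendrocyte and 1 to 16 for activity-regulated genes. Heme pathway, other globin, white cell and microglial lists stayed at 0 calls in all 17. The cause of these changes was not tested. Depth in reads is unknown, which limits the low values of Alas2, Rhag and Epb4.2 most.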
